A study of Mus musculus with 6 samples.

Results

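Chromatin accessibility was examined around the 8 mouse genes Id1, Id2, Id3, Tcf3, Tcf4, Tcf12, Zeb1 and Zeb2, which encode ID proteins, E proteins and ZEB factors. A peak belonged to a gene when it overlapped the gene body, or lay within 50 kb with that gene as the nearest protein-coding gene. This gave 208 of the 182166 consensus peaks, of which 195 had a mean of at least 10 normalized reads and were tested; the other 13 are counted but not tested. Accessibility was measured by ATAC-seq, which tags open DNA with a transposase, in sorted granulocyte-monocyte progenitors (GMPs), the bone marrow cells that give rise to granulocytes and monocytes, of C57BL/6 mice without treatment. In GFI1-KI mice (GFI1 KI /KI) human GFI1 replaces mouse Gfi1. In GFI1-KD mice (GFI1 KD /KD) human GFI1 also stands in place of the mouse gene but is expressed at 10-20%, so both genotypes carry the human protein and neither is an unmodified animal. Each genotype has 3 libraries (KI1, KI2, KI3 and KD1, KD2, KD3). The labels give no age, nor whether each library is a separate animal, and the p-values therefore measure only the spread between libraries, which may be technical.

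E proteins are basic helix-loop-helix factors that bind E-box motifs as dimers. ID proteins carry the dimerisation domain without the DNA-binding part, pair with E proteins and so keep them off DNA. ZEB factors are zinc-finger repressors that bind a subset of the same E-box motifs. In blood, Id2 is needed for innate lymphoid and conventional dendritic cells, Tcf4 for plasmacytoid dendritic cells, Tcf3 for B cells, and Zeb2 for monocytes and several dendritic cells. GFI1, a zinc-finger repressor of blood progenitors, is known to restrain Id2.

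Starts with a strand were taken from RefSeq promoter windows (GRCm38.p6, the assembly called mm10), in which Id2, Id3, Tcf3, Tcf12 and Zeb2 had an entry. The stretches before the start are shown for 4 genes whose outermost window reached beyond the gene body, because peaks at these starts are compared with distal peaks below. Capitals mark exact matches to the motifs searched. These were the E-box CAGGTG of E proteins and ZEB factors, read on both strands, the palindromic E-box CAGCTG, the palindromic SMAD element GGCGCC of BMP-responsive genes, the GFI1 motif AATCACNGC on both strands, and the TATA-like TATAA as printed, on the gene's strand alone. The matches shown do not overlap each other.
Id3, chr4:136143572-136143821, plus strand: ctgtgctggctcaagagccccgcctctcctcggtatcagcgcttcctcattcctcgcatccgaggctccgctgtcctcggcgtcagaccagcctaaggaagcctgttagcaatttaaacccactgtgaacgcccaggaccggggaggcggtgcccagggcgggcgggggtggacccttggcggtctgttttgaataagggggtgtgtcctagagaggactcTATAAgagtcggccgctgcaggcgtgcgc
Id2, chr12:25096093-25096342, minus strand: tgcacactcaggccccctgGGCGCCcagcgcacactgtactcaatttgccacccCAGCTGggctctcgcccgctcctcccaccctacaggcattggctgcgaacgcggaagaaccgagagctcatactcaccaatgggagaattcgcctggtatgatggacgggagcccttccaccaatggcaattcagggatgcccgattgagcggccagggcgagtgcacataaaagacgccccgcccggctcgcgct
Tcf12, chr9:72111894-72112069, minus strand: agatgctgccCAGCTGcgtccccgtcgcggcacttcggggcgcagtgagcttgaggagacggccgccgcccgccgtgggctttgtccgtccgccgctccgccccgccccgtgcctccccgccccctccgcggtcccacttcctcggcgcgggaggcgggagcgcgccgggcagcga
Zeb2, chr2:45117443-45117692, minus strand: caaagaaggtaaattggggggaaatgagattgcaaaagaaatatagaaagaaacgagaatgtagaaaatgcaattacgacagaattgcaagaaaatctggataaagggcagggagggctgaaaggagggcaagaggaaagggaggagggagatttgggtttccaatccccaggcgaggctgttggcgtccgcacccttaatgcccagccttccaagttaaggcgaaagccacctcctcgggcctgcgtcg

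Each of these stretches overlapped a peak, and of these peaks the one at Tcf12 was called lower while those at Id3, Id2 and Zeb2 were not called. The Tcf12 stretch had a GC content of 78.4% and the Zeb2 stretch 49.6%. Over 32851 RefSeq windows of 250 bases before a start, CAGGTG was found in 17.2%, while CAGCTG was found in 13% and the SMAD element GGCGCC in 9.6%. The GFI1 motif AATCACNGC was in 0.8% and TATAA in 16%. CAGCTG was found at Id2 and Tcf12, GGCGCC at Id2 and TATAA at Id3. The first E-box and the GFI1 motif were in none of the 4 stretches shown, which says only that these letters are not in these windows.

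Reads in peaks ranged from 19408373 to 27741446 per library for GFI1-KI and from 16022763 to 19857646 for GFI1-KD, and KI1 lay nearest to GFI1-KD on the first principal component (-47.8, against -111.3 and -106.7 for KI2 and KI3 and 79.6 to 99.3 for GFI1-KD). Chromosome Y had 499 to 865 reads in 4 libraries, but 1 in KI2 and 0 in KD1. Within each genotype the libraries thus differed in chromosome Y reads more than repeats of the same animal would. Progenitor markers were open in both genotypes, with a sum over their gene-end peaks (within 1 kb of either end) of 8787 to 9291 normalized reads for GFI1-KI libraries and 8499 to 8897 for GFI1-KD libraries; 11 of the 12 genes had a gene-end peak. The same sums for plasmacytoid dendritic markers (4 of 8 genes with a gene-end peak, Bst2 alone averaging 621 and 634) were 857 to 928 and 879 to 969, for B cell markers (5 of 7) 625 to 701 and 563 to 701, for T, NK and innate lymphoid markers (6 of 7) 1665 to 1705 and 1408 to 1653, for monocyte and conventional dendritic markers (5 of 6) 1290 to 1516 and 1507 to 1590, for erythroid and megakaryocyte markers (6 of 7) 2265 to 2616 and 1760 to 2000, and for stem cell markers (5 of 5) 1892 to 2061 and 1633 to 1800. Within these sums, 1 Cd3d peak averaged 928 in GFI1-KI and 821 in GFI1-KD. A Klf1 peak averaged 733 and 623, and a Mecom peak 822 and 687. In sorted bulk cells, fewer cells with an open site and a less open site in each cell cannot be told apart.

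Calls between GFI1-KD and GFI1-KI were counted by family, and no difference between families was tested. ID protein genes had 6 of 36 tested peaks higher in GFI1-KD and 0 lower, 5 of the 6 at Id3. E protein genes had 5 of 100 higher, all in Tcf4, and 2 lower, both in Tcf12. ZEB genes had 2 of 59 higher and 8 lower. A peak was called when its limma p-value, adjusted over all 170733 tested peaks, was under 0.05; of all those peaks 10.5% were called, 4.99% higher and 5.48% lower. Across the 195 members 13 (6.67%) were higher and 10 (5.13%) lower, close to the background in each direction, so the members as a whole do not stand out by their counts. Their median log2 fold change was 0.00, against -0.05 over all tested peaks. With median-of-ratios scaling the split over all peaks moved from 8520 higher and 9352 lower to 11661 and 7756, and that of the members from 13 and 10 to 17 and 9.

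**Figure D1:**
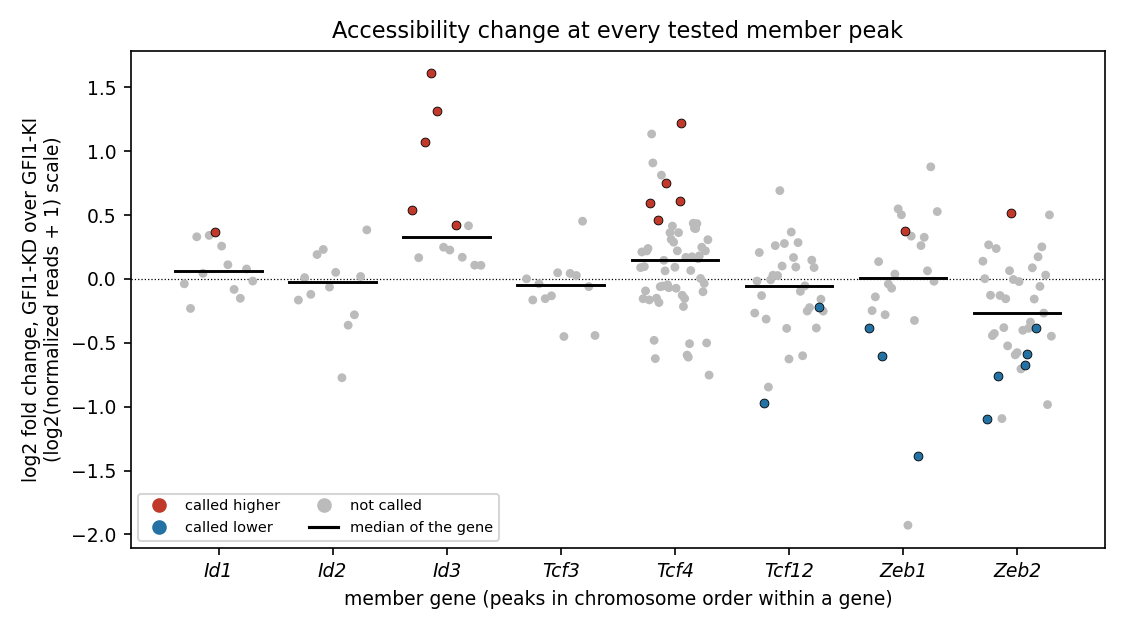
Log2 fold change (GFI1-KD over GFI1-KI, on the log2(normalized reads + 1) scale) of the 195 tested peaks, one point per peak, grouped by gene; red and blue points were called higher and lower, grey points were not called, and black lines are medians. All 12 Id3 points lie above 0, and the Zeb2 median lies at -0.27.

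Id3 had the highest share of called peaks among the 8 genes: 5 of 12 tested peaks (41.7%) rose in GFI1-KD, and 4.99% of all tested peaks did so. It encodes an ID protein that is induced by cytokine and antigen receptor signalling in lymphocytes. Id3 lies on chromosome 4 from 136143822 to 136145392. All 12 fold changes were above 0, with a median of 0.33, and the GFI1-KD libraries lay above all GFI1-KI libraries at 7 of the 12, against 11.4% of all tested peaks. Neighbouring peaks were counted singly in these shares. The called peaks from 136123064 and from 136123478 lie side by side, so the calls need not mark separate sites.

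The changes at Id3 were largest in a cluster upstream of the gene. The peak 20.2 kb upstream of the start, from 136123478 to 136123768, held 27.0, 21.9 and 21.1 normalized reads in the GFI1-KI libraries (in numerical order, as throughout) and 97.4, 58.0 and 68.7 in the GFI1-KD libraries. Each GFI1-KD library was above every GFI1-KI library, and the log2 fold change was 1.61 ± 0.22 (SE; limma adjusted p = 9.096e-05). Its neighbour 20.6 kb upstream, from 136123064 to 136123393, held 79.9, 42.1 and 43.0 against 133, 86.4 and 121. Here KI1 lay close below KD2, and the log2 fold change was 1.07 ± 0.22 (limma adjusted p = 0.00292). Another peak, 18 kb upstream from 136125637 to 136125908, held 19.1, 12.3 and 11.3 against 36.4, 32.1 and 39.9 (log2 fold change 1.31 ± 0.27, limma adjusted p = 0.0030). These 3 peaks kept their call in each of the 17 alternatives in which they were tested, with adjusted p of at most 0.0379.

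A stronger peak 26.5 kb upstream of Id3, from 136117036 to 136117583, held 279, 202 and 214 normalized reads against 388, 292 and 330. The genotypes did not overlap, although KI1 came close to KD2 (log2 fold change 0.54 ± 0.13, limma adjusted p = 0.00831). Leaving out KI2 (adjusted p = 0.0704 in limma) or KI3 (0.0508) ended this call, as did the restriction to the 4 libraries with chromosome Y reads (0.177). Nearer the gene, the peak 3.4 kb upstream, from 136140309 to 136140617, held 182, 199 and 169 against 262, 227 and 248, without overlap (log2 fold change 0.42 ± 0.12, limma adjusted p = 0.0226). Its call was lost without KI3 (0.135), KD1 (0.0656) or KD3 (0.0772) and within the libraries with chromosome Y reads (0.0965).

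At the Id3 start itself the change was small. The start peak, from 136143534 to 136144065, held 567, 555 and 520 against 630, 634 and 583 normalized reads, so the libraries separated by genotype, but the log2 fold change of 0.17 ± 0.08 was not called (limma adjusted p = 0.181). The peak near the other end of the gene, from 136144681 to 136144918, held 110, 116 and 117 against 178, 142 and 142. It missed the threshold at 0.42 ± 0.14 (limma adjusted p = 0.0549) and was called by edgeR on the recovered reads (adjusted p = 0.0233).

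**Figure D2:**
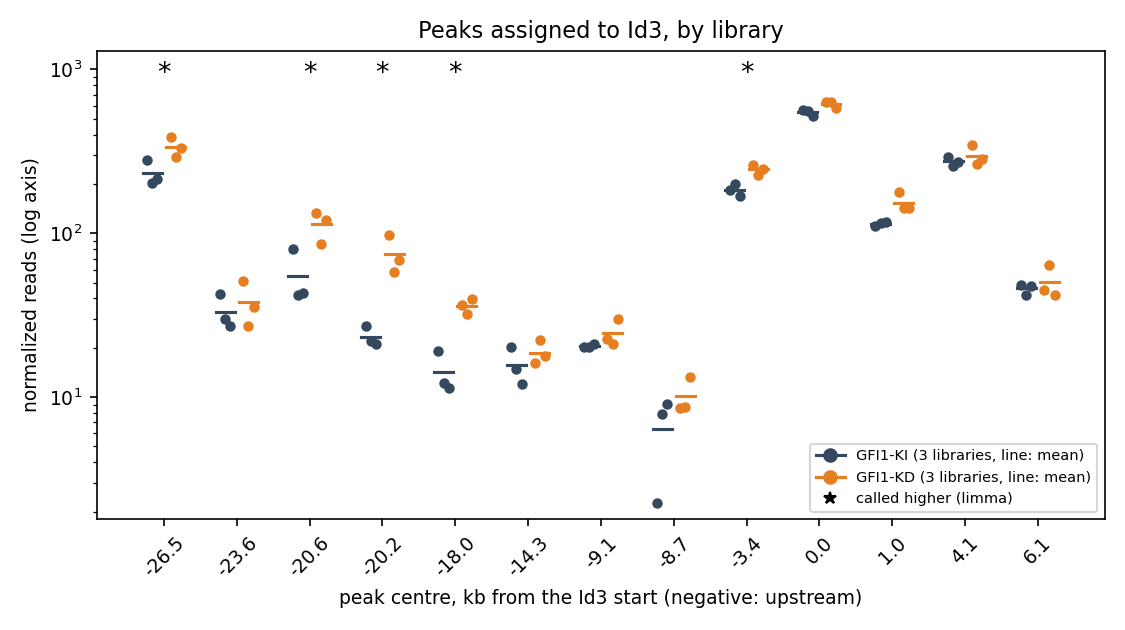
Normalized reads (log axis) at the 13 peaks assigned to Id3, ordered by distance in kb from the Id3 start; dark points are the 3 GFI1-KI libraries, orange points the 3 GFI1-KD libraries, lines are means and asterisks mark peaks called higher. The 3 peaks 18 to 20.6 kb upstream separate most, and the start peak at 0 is the highest of the 13 with the genotypes close together.

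Id1, an ID gene induced by BMP signalling, lies on chromosome 2 from 152736251 to 152737410. Of its 12 tested peaks 1 was higher and 0 lower, 8.3% called against 10.5% of all tested peaks. At an unadjusted p under 0.05 there were 2, both higher, and edgeR and DESeq2 each called 2 higher and 0 lower. The called peak lay 0.9 kb outside the gene, from 152735039 to 152735358, with 299, 235 and 290 normalized reads in KI1 to KI3 and 352, 357 and 350 in KD1 to KD3 (log2 fold change 0.37 ± 0.11, limma adjusted p = 0.0289). The GFI1-KD libraries were above the GFI1-KI ones and nearly equal to each other. The call was lost without KI2 (0.229), KI3 (0.0636), KD2 (0.0686) or KD3 (0.0824) and within the libraries with chromosome Y reads (0.277). The peak overlapping the gene's lower-coordinate end, from 152736060 to 152736522, held 428, 445 and 378 against 534, 447 and 516 (0.26 ± 0.09, limma adjusted p = 0.0852). The most accessible of all member peaks lay 4.0 kb outside Id1, from 152741372 to 152742249. It held 1475, 1404 and 1374 against 1596, 1423 and 1474, and the genotypes overlapped (0.08 ± 0.06, limma adjusted p = 0.437).

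Id2, on chromosome 12 from 25093799 to 25096092, had no called peak among 12 tested in limma, where 10.5% of all tested peaks were called. At an unadjusted p under 0.05 there were 2. EdgeR called 1 higher and 1 lower and DESeq2 0, and limma with median-of-ratios scaling called 1 higher and 0 lower. The start peak, from 25095994 to 25096554, which covers the Id2 stretch printed above, held 623, 670 and 675 normalized reads in GFI1-KI and 581, 638 and 591 in GFI1-KD. The genotypes overlapped there, at a log2 fold change of -0.12 ± 0.08 (limma adjusted p = 0.35). A strong peak 23.5 kb upstream, from 25119258 to 25119827, held 528, 482 and 452 against 526, 463 and 527 (0.05 ± 0.09, limma adjusted p = 0.765). The peak 36.3 kb upstream, from 25132251 to 25132533, came nearest to the threshold with 27.0, 42.1 and 36.2 against 22.5, 22.2 and 15.5 (-0.77 ± 0.25, limma adjusted p = 0.0522). The peak 47.6 kb upstream, from 25143513 to 25143848, went the other way. It held 122, 104 and 106 against 127, 152 and 156, without overlap (0.38 ± 0.14, limma adjusted p = 0.0823). These upstream peaks were all chosen after their values were seen.

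Id2 is bordered by a gene-poor stretch, and 54 further peaks 50 to 250 kb away with Id2 as nearest gene were tested. Of these 2 were higher and 2 lower, 7.4% called against 10.5% overall. The one with the smallest p, 120.9 kb upstream from 25216765 to 25217160, held 144, 176 and 128 normalized reads in GFI1-KI and 88.8, 93.8 and 101 in GFI1-KD, without overlap (log2 fold change -0.64 ± 0.15, limma adjusted p = 0.00739; 0.0885 without KI2 and 0.14 within the libraries with chromosome Y reads).

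Among the E protein genes, Tcf4 rose at sites inside its long body while its end peak did not. Tcf4 lies on chromosome 18 from 69343429 to 69687967, and 5 of 57 tested peaks were higher and 0 lower (15 at an unadjusted p under 0.05; edgeR called 8 higher and 0 lower, DESeq2 4 and 0). That is 8.77% higher against 4.99% of all tested peaks. The median log2 fold change was 0.15, and 35 of 57 were above 0.

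At Tcf4, 2 calls held in each of the 17 alternatives. The peak from 69528013 to 69528565 held 47.3, 56.1 and 53.6 normalized reads in KI1 to KI3 and 86.7, 83.9 and 95.4 in KD1 to KD3 (log2 fold change 0.75 ± 0.17, limma adjusted p = 0.0058). The peak from 69586037 to 69586347 held 119, 116 and 103 against 152, 176 and 193 (0.61 ± 0.14, limma adjusted p = 0.00587). In both, every GFI1-KD library exceeded every GFI1-KI library. The broad peak from 69415446 to 69416471 held 298, 305 and 307 against 491, 363 and 414 (0.46 ± 0.11, limma adjusted p = 0.00692), with the GFI1-KI libraries close together. Its call was kept in each leave-one-out fit and lost within the libraries with chromosome Y reads (0.1085).

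The other 2 Tcf4 calls were lost when single libraries were left out. The weak peak from 69586596 to 69586850, beside a stronger called one, held 19.1, 7.01 and 6.80 normalized reads against 18.2, 25.9 and 29.9, with KI1 above KD1 (log2 fold change 1.22 ± 0.36, limma adjusted p = 0.0326). Its call was lost without KI2 (0.142), KI3 (0.152), KD2 (0.1065) or KD3 (0.141), in DESeq2 (0.0799) and within the libraries with chromosome Y reads (0.0615). The peak from 69384384 to 69384746 held 47.3, 63.1 and 47.6 against 71.7, 72.8 and 95.4, without overlap (0.59 ± 0.18, limma adjusted p = 0.0403). Its call was lost without KI1 (0.0817), KI3 (0.164), KD2 (0.0637) or KD3 (0.184) and in DESeq2 (0.069). The peak overlapping the lower-coordinate end of Tcf4, from 69344007 to 69344649, was the most accessible of the gene, at 623, 709 and 656 against 613, 586 and 584. All GFI1-KD values were below the GFI1-KI values there, but the log2 fold change of -0.15 ± 0.08 was not called (limma adjusted p = 0.219). Near the other end, the peak from 69686952 to 69687173 held 19.1, 15.8 and 15.9 against 28.9, 11.1 and 28.8 (0.31 ± 0.33, limma adjusted p = 0.60). Plasmacytoid dendritic markers, whose cells depend on Tcf4, had 2 of 84 tested peaks higher and 4 lower, 7.1% called against 10.5% of all tested peaks. Runx2 alone held 66 of these 84 peaks, with 2 higher and 3 lower, so the count rests mostly on that gene. The part of these cells in the Tcf4 values was not tested.

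**Figure D3:**
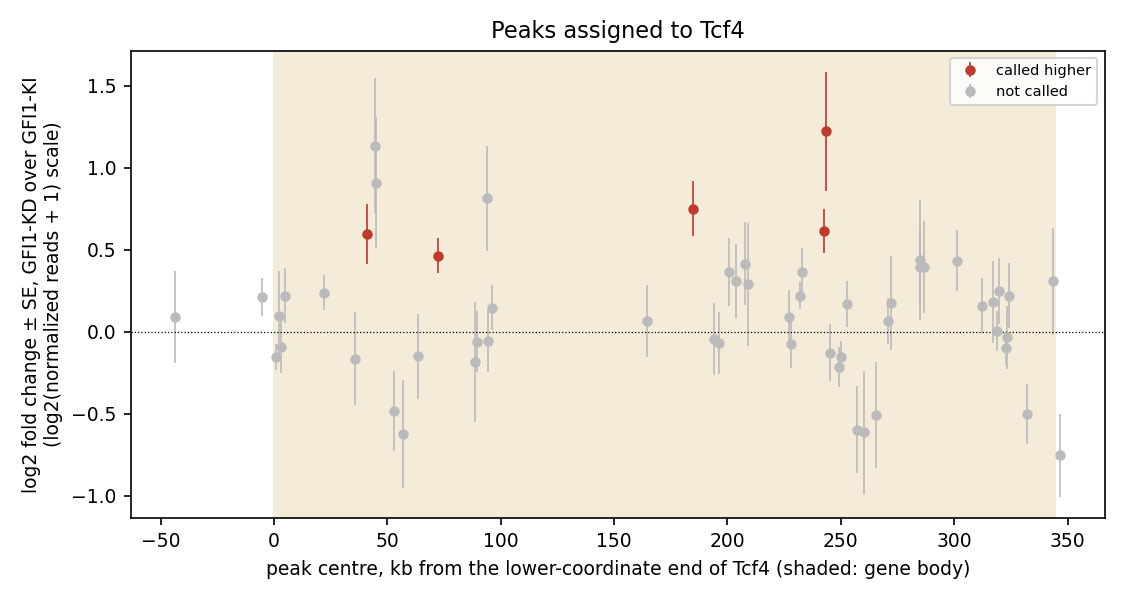
Log2 fold change ± SE (GFI1-KD over GFI1-KI) of the 57 tested peaks assigned to Tcf4 against distance in kb from the lower-coordinate end of the gene, with the gene body shaded; red points were called higher and grey points were not called. The 5 called peaks lie inside the gene body between 0.46 and 1.22, and the peak at the left end lies at -0.15.

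Tcf12, the E protein HEB of T cell and mesoderm development, lies on chromosome 9 from 71844252 to 72111893, and 2 of its 31 tested peaks were lower and 0 higher (7 at an unadjusted p under 0.05; edgeR called 1 lower and 0 higher, DESeq2 0 and 0). At 6.45% lower it was near the 5.48% of all tested peaks. The broad peak over its outermost start, from 72110741 to 72112198, which covers the Tcf12 stretch printed above, held 837, 846 and 908 normalized reads in GFI1-KI and 712, 732 and 779 in GFI1-KD. The genotypes did not overlap, but at -0.22 ± 0.07 (limma adjusted p = 0.0498) the call stood at the threshold. It was lost without KI2 (0.143), KI3 (0.269), KD1 (0.108), KD2 (0.0728) or KD3 (0.0678), and with median-of-ratios scaling (0.1125), equal totals (0.0837), edgeR (0.0871), DESeq2 (0.212), no filter (0.0536), a term for chromosome Y reads (0.057) and only the libraries with such reads (0.2285). The weak peak from 71848503 to 71848720 lay inside the gene near its lower-coordinate end, 263.2 kb downstream of the outermost start. It held 18, 26.3 and 30.2 against 11.8, 9.87 and 14.4 (-0.97 ± 0.30, limma adjusted p = 0.0407). The call was lost without any library but KI1 (0.0521 to 0.234), in DESeq2 (0.1595) and within the libraries with chromosome Y reads (0.18).

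Tcf3, the E protein of early B cell commitment, on chromosome 10 from 80409541 to 80433976, had 12 tested peaks and no call in limma, edgeR or DESeq2, with 0 at an unadjusted p under 0.05 in each. Of all tested peaks limma called 10.5%. Its highest peak, across the higher-coordinate end from 80433892 to 80434324, held 703, 627 and 684 normalized reads in GFI1-KI and 597, 604 and 635 in GFI1-KD (log2 fold change -0.13 ± 0.08, limma adjusted p = 0.298). KI2 fell below KD3 there. The neighbouring peak from 80433493 to 80433842, at the start in the RefSeq windows, held 309, 351 and 341 against 275, 326 and 299 and also overlapped between genotypes (-0.15 ± 0.10, limma adjusted p = 0.366).

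The ZEB genes carried most of the lower calls among the 8 genes. Zeb2 lies on chromosome 2 from 44983512 to 45117442 and had 5 of 37 tested peaks lower and 1 higher, 13.5% lower against 5.48% of all tested peaks. Its median log2 fold change was -0.27, and 26 of 37 were below 0. The GFI1-KD libraries lay below all GFI1-KI libraries at 9 peaks, 24.3% of those tested against 17.4% overall. Averaged over the 37 peaks, the log2 values were 5.84, 6.10 and 5.87 in KI1 to KI3 and 5.76, 5.50 and 5.77 in KD1 to KD3. KI2 was thus the highest library and KD2 the lowest. This order was not particular to Zeb2. By the same mean, KD2 was also lowest at Id1, Id2, Tcf3, Tcf12 and Zeb1, though not at Id3 or Tcf4. KI2 was also highest at Tcf12 and Zeb1, though not at the other genes.

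The called Zeb2 decreases were spread over the gene. The peak 86.1 kb downstream of the outermost start, from 45031209 to 45031561, held 58.5, 71.0 and 71.0 normalized reads in KI1 to KI3 and 53.5, 30.9 and 35.5 in KD1 to KD3 (log2 fold change -0.76 ± 0.21, limma adjusted p = 0.0211). KD1 came close to KI1. The peak 6.2 kb downstream, from 45111037 to 45111436, held 267, 253 and 272 against 201, 197 and 206, with little spread within either genotype (-0.39 ± 0.11, limma adjusted p = 0.0234). Outside the gene, 13.9 kb beyond its lower-coordinate end, the peak from 44969337 to 44969581 held 20.3, 34.2 and 24.9 against 16, 8.64 and 11.1 (-1.10 ± 0.31, limma adjusted p = 0.0254). The peak from 45099893 to 45100394 held 87.8, 124 and 103 against 73.8, 75.3 and 58.8 (-0.59 ± 0.17, limma adjusted p = 0.0280). The fifth, from 45093349 to 45093718, held 61.9, 92.9 and 74.8 against 64.2, 39.5 and 41.0, with KD1 above KI1 (-0.67 ± 0.21, limma adjusted p = 0.0392). All 5 calls were lost without KI2 (0.0759 to 0.226), KI3 (0.0935 to 0.123) or KD3 (0.0575 to 0.144), and all but that of the peak from 45099893 without KD2 (0.0543 to 0.152). Within the libraries with chromosome Y reads, only the peak from 45031209 kept its call (0.01775).

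One Zeb2 peak went the other way. From 45049852 to 45050234 it rose by 0.51 ± 0.15 (limma adjusted p = 0.0298), with 94.6, 91.2 and 77.0 normalized reads in KI1 to KI3 and 139, 116 and 121 in KD1 to KD3. Beside it lay the stronger peak, chosen for its position after its values were seen, from 45049245 to 45049678, which held 480, 420 and 391 against 477, 415 and 456 and was not called (0.06 ± 0.10, limma adjusted p = 0.721). The peak over the outermost Zeb2 start, from 45117094 to 45117604, which overlaps the Zeb2 stretch printed above, held 134, 153 and 125 against 152, 121 and 149 (0.03 ± 0.14, limma adjusted p = 0.919). The second peak near that end, from 45116758 to 45116873, held 33.8, 43.8 and 37.0 against 31.0, 33.3 and 29.9 (-0.27 ± 0.21, limma adjusted p = 0.459). The most accessible Zeb2 peak, 1.4 kb outside the gene from 44981608 to 44982073, held 640, 592 and 623 against 596, 543 and 559 (-0.13 ± 0.08, limma adjusted p = 0.327). The genotypes overlapped at the outermost start and at the most accessible peak.

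Beyond 50 kb, 22 peaks with Zeb2 as nearest gene were tested, 1 of them higher and 2 lower. That is 13.6% called, against 10.5% of all tested peaks. The lower one with the smallest p lay 54.6 kb upstream, from 45171799 to 45172187, with 14.6, 47.3 and 36.2 normalized reads in GFI1-KI and 12.8, 11.1 and 6.65 in GFI1-KD (log2 fold change -1.49 ± 0.37, limma adjusted p = 0.0115). KI1 resembled the GFI1-KD libraries there, and the call was lost without KI2 (0.127), KI3 (0.08355) or KD3 (0.0626) and within the libraries with chromosome Y reads (0.0656). In the same direction from the gene, the peak 159.5 kb upstream, from 45276652 to 45277136, was higher in GFI1-KD. It held 258, 213 and 168 against 351, 274 and 278 (0.51 ± 0.14, limma adjusted p = 0.0195) and was lost without KI2 (0.0626), KI3 (0.162) or KD1 (0.0806) and within the libraries with chromosome Y reads (0.139). A C/EBP-bound enhancer far upstream of Zeb2 is known from dendritic cell development. Whether this peak holds it was not tested, and the peak was chosen after its values were seen. A stronger peak 162.2 kb upstream, from 45279400 to 45279908, held 742, 581 and 574 against 729, 599 and 643. It was not called (0.06 ± 0.10, limma adjusted p = 0.746). The peak between them, 160.4 kb upstream, was higher without overlap but not called (0.29 ± 0.16, limma adjusted p = 0.248). These neighbours were also chosen after their values were seen.

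**Figure D4:**
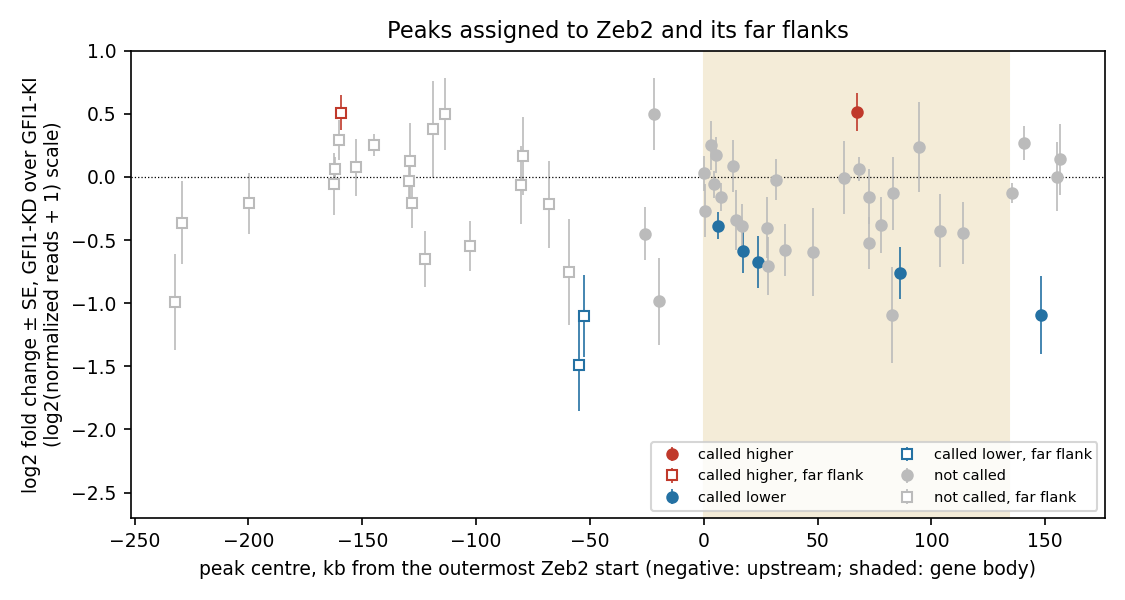
Log2 fold change ± SE (GFI1-KD over GFI1-KI) of tested peaks at Zeb2 against distance in kb from its outermost start, negative upstream, with the gene body shaded; circles are the 37 peaks of the gene, open squares the 22 peaks 50 to 250 kb away, red called higher, blue called lower and grey not called. Lower calls are spread from 148.0 kb downstream to 54.6 kb upstream, and 1 open square 159.5 kb upstream was called higher.

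Zeb1, the second ZEB factor, lies on chromosome 18 from 5591327 to 5775468 and had 3 of 22 tested peaks lower and 1 higher, with 11 at an unadjusted p under 0.05. That is 13.64% lower and 4.55% higher, against 5.48% and 4.99% of all tested peaks. Unlike at Zeb2, the median log2 fold change was 0.01, with 11 peaks above 0 and 11 below. The GFI1-KD libraries lay above all GFI1-KI libraries at 5 tested peaks and below them at 4. At its lower-coordinate end, the peak from 5591208 to 5591975 held 323, 316 and 325 normalized reads in KI1 to KI3 and 270, 230 and 242 in KD1 to KD3, a clear separation (log2 fold change -0.38 ± 0.10, limma adjusted p = 0.0198). The adjoining peak from 5591981 to 5592978 held 319, 309 and 300 against 261, 242 and 278, also without overlap, but was not called (-0.25 ± 0.10, limma adjusted p = 0.127). The peak from 5603900 to 5604413 held 82.2, 112 and 86.8 against 56.7, 56.8 and 69.9 (-0.60 ± 0.17, limma adjusted p = 0.0273). A weak peak 9.2 kb outside the gene, from 5784652 to 5784870, held 15.8, 20.2 and 11.3 against 8.56, 3.70 and 4.44 (-1.39 ± 0.42, limma adjusted p = 0.0381). Inside the gene, the peak from 5688327 to 5688888 rose from 288, 280 and 301 to 354, 367 and 406 (0.37 ± 0.10, limma adjusted p = 0.0169). The call at the lower-coordinate end was lost without KI2 (0.081), KI3 (0.0967), KD2 (0.0641) or KD3 (0.0706), that at 5603900 without KI2 (0.1997), KI3 (0.06885), KD1 (0.0608) or KD2 (0.0871), and that of the weak outer peak without KI3 (0.0788), KD2 (0.103) or KD3 (0.091). Within the libraries with chromosome Y reads, the call at the lower-coordinate end was kept (0.0415) and that at 5603900 was lost (0.2954). The weak outer peak was not tested there. The most accessible peak assigned to Zeb1, 44.2 kb outside it from 5819715 to 5820618, held 433, 451 and 395 against 496, 383 and 391, with the genotypes overlapping (-0.02 ± 0.10, limma adjusted p = 0.938).

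The lower calls at the ZEB genes and Tcf12 were lost or kept depending on the library left out. Of the 10, limma kept 9 without KI1 and 7 without KD1. Without KI2 or without KI3 limma called 0 of the 10 lower member peaks, with 9 and 10 of them at an unadjusted p under 0.05, and without KD2 or KD3 it kept 1 each time. DESeq2 also called 0 lower members, with 16 at an unadjusted p under 0.05, while edgeR kept 9 of the 10. Within the libraries with chromosome Y reads limma kept 2 of the 10. The lower calls over all tested peaks also varied, from 9352 with all libraries to 2898 without KI2 and 3382 without KI3. They were 5788 without KD2, 6274 without KD3, 10176 without KI1 and 10151 without KD1. DESeq2 gave 3597, edgeR 8957, and limma within the libraries with chromosome Y reads 4644. The higher Zeb1 call was lost without KI2 (0.0998), KI3 (0.0539) or KD3 (0.0983), and the higher Zeb2 call without KI2 (0.0827), KI3 (0.168), KD1 (0.0963) or KD3 (0.0698). Both were also lost within the libraries with chromosome Y reads (0.0722 at Zeb1 and 0.1737 at Zeb2). Of the 13 higher calls, 8 were kept without KI2, 6 without KI3 and 7 without KD3. The higher calls over all tested peaks went from 8520 to 4290, 3614 and 4475 in these fits. Beside 4.99% higher and 5.48% lower over all tested peaks, stem cell markers had 12.87% of 101 tested peaks lower (13), erythroid and megakaryocyte markers 21.21% of 33 (7) and T, NK and innate lymphoid markers 8.97% of 78 (7), each with 0 higher. Of the stem cell calls 8 lay at Hlf and 4 at Mecom, and of the T, NK and innate lymphoid calls 6 lay at Tcf7. Progenitor and B cell markers had 10.9% and 9.1% called, against 10.5% of all tested peaks. Monocyte and conventional dendritic markers had 4 of 31 higher (12.9%) and 1 lower (3.23%). Their part in the Zeb1, Zeb2 and Id3 values was not tested.

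Calls were also counted by position and strength. Of 17 tested gene-end peaks of the members 1 was higher and 2 lower (17.6% called), and of the other 178 tested peaks 12 were higher and 8 lower (11.2%). Over all tested peaks, gene-end peaks were called higher in 1.73% and lower in 7.11%, and the others in 5.61% and 5.17%. Of the 28 members with a mean of 250 or more normalized reads, 6 were called (21.4%), against 16.9% of all peaks of that strength. Of the 105 members with a mean of 10 to 50, 6 were called (5.7%), against 7.2%.

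Profiles over the 6 libraries were compared as the mean log2 value of a gene's tested peaks, among genes with at least 20 tested peaks. The 3 genes most like Tcf4 were Parp8, Slc23a2 and Kcnk13 (Pearson r = 0.993, 0.992 and 0.99), and those most like Zeb2 were Smad3, Spred2 and Arntl (0.985, 0.982 and 0.979). The ID genes had 12 tested peaks each. Most like Id3 were Myrip, Pdcd1lg2 and Map3k20 (0.99, 0.989 and 0.988), most like Id1 were Hmcn2, Camk2g and Unc13a (0.982, 0.973 and 0.971), and most like Id2 were Sema4f, Col13a1 and Dlgap4 (0.992, 0.991 and 0.972). With 6 libraries in 2 genotypes these values describe shared order and depth; 101 genes passed 0.9 with Id3, 122 with Tcf4 and 121 with Zeb2.

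Genes that act with these factors were described by count. The other bHLH partners, 12 genes including Id4, Tal1, Lyl1 and Bhlhe40, had 6 of 125 tested peaks higher and 5 lower. That is 8.8% called against 10.5% of all tested peaks, with a median log2 fold change of -0.06 against -0.05. Tal1 and Lyl1, bHLH factors that pair with E proteins in blood stem cells, each had 1 peak lower and 0 higher, of 11 and 3 tested. Atoh8 had 3 peaks higher and 2 lower of 29, and the list's smallest p was at a peak 18.1 kb from Atoh8, on chromosome 6 from 72253914 to 72254718, with 198, 195 and 251 normalized reads in KI1 to KI3 and 96.3, 87.6 and 84.3 in KD1 to KD3 (-1.25 ± 0.14, limma adjusted p = 1.119e-05).

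The 13 co-regulator genes, which encode adaptors, corepressors and histone-modifying coactivators that act with E proteins or ZEB factors, had 3 of 172 tested peaks higher and 19 lower, 11.05% lower against 5.48% overall. The lower calls included 4 of 7 peaks at Runx1t1, 5 of 29 at Cbfa2t3 and 3 of 11 at Cbfa2t2, the ETO family of corepressors that bind E proteins, with 0 higher at any of these. A peak inside Runx1t1, on chromosome 4 from 13805663 to 13806120, held 119, 167 and 167 normalized reads in GFI1-KI and 59.9, 25.9 and 42.1 in GFI1-KD (-1.86 ± 0.22, limma adjusted p = 2.579e-05). Ep300, a histone acetyltransferase gene, had 2 of 15 peaks higher and 1 lower, and the ZEB corepressor genes Ctbp1 and Ctbp2 had 1 of 9 and 2 of 18 lower, with 1 higher at Ctbp2.

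The 16 BMP and TGF-beta signalling genes, whose pathways induce Id and Zeb genes in many tissues, had 5 of 297 tested peaks higher and 27 lower, 9.09% lower against 5.48% overall. Smad3 had 7 of 39 lower and 1 higher, Tgfbr2 6 of 42 and 1, Smad1 and Smad6 4 lower each of 25 and 33. Smad7, the inhibitory SMAD, had 2 of 22 higher and 0 lower. One of them, 13.4 kb from the gene on chromosome 18 from 75353405 to 75353990, held 240, 207 and 215 normalized reads in GFI1-KI and 444, 351 and 393 in GFI1-KD, without overlap (0.84 ± 0.11, limma adjusted p = 6.836e-05).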

How the data were processed

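For each consensus peak the authors deposited a normalized coverage signal; the values have the form of read counts times a constant per library. Alignment and peak tools are listed, per the submitters' processing notes, as BWA and MACS2, with DiffBind among others, on mm10; their versions, the merging of peaks, the constants and any transposase shift were not given in the sources used here. Columns named WT were taken as GFI1-KI by number and series title. Chromosome codes were read in alphabetical order. Values were whole multiples of 1 step per library (100% within 0.01 reads), and edgeR 4.0.16 on these reads called 12559 peaks higher and 8957 lower. Peaks with a mean of at least 10 were tested with limma 3.58.1 in R 4.3.3, using trended variances of log2(value + 1) and Benjamini-Hochberg adjustment; the fold changes understate low peaks. It was tested on simulated data. Alternatives included DESeq2 1.42.0, other scalings, pseudocounts and filters, and leaving out each library. Genes came from RefSeq, exons and introns were not told apart, and an assigned gene need not be the one a peak regulates. Named were, per member, up to 4 called peaks by p, up to 2 peaks within 1 kb of its ends, and the strongest peak, and per list or far flank the called peak with the smallest p; other peaks were chosen after their values were seen, as was TATAA. The members and lists were chosen with earlier results of these data known. Tables and plots used pandas 2.3.3, numpy 2.4.6 and matplotlib 3.10.9 under Python 3.11.15.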

Additional observations from a re-analysis of the deposited data

How the results depend on the processing

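Leaving out each library in turn gave 3614 to 11977 higher and 2898 to 10176 lower calls over all tested peaks, and 6 to 19 higher and 0 to 16 lower calls among members. Within the 4 libraries with chromosome Y reads, an alternative chosen after seeing the data, limma called 4174 higher and 4644 lower overall and 6 and 2 members. DESeq2 called 3597 lower over all peaks and 0 lower members, and edgeR 20 higher members. With a mean of at least 50, limma called 5956 of 79435 tested peaks lower, against 9352 of 170733 at a mean of at least 10. Gene-body overlap alone held 7 of the higher members. Of the 23 called members, 6 kept their call in each leave-one-out fit and 5 in each of the 17 alternatives that tested them, and none of the 23 changed sign. Of the named peaks that were not called, 3 changed sign in at least 1 alternative, all with log2 fold changes near 0. With a replicate block limma called 13 higher and 10 lower members and 9088 and 9852 peaks overall. Whether the replicate numbers pair samples cannot be told from these values. Same-numbered libraries correlated at -0.02, -0.04 and 0.06 in their deviations from the genotype means. KI1 and KI2 correlated best with another number, and KI3 with its own. Changes at peaks of under 20 normalized reads rest on few reads, so small differences there were not detectable.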
